A study of Mus musculus with 2 samples.

Results

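Keg1, Glyat, Nat8, Nat8f1, Acy1 and Acy3 encode kidney enzymes that join an acyl group to an amino acid or remove one. These 6 genes were picked by name, as related enzymes, with the values of this comparison in view, out of 18194 genes named on the array, and they are read by 9 of its 45101 probe sets. Kidneys of 8-week-old male C57BL/6 mice were taken 24 h after 30 min of warm ischemia of both kidneys and reperfusion, which models acute kidney injury (AKI). The EST KO AKI pool joined 124 mg of tissue from 6 mice lacking estrogen sulfotransferase (EST), the enzyme made from Sult1e1 that sulfates and so inactivates estrogens. The WT AKI pool joined 180 mg of tissue from 3 wild-type mice, and each pool was read on 1 array. The comparison asks how gene expression in the injured male kidney differs without EST. Both pools were injured and no uninjured kidney was analysed here, so no value compares injury with its absence.

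There were no replicate arrays, so no test between genotypes is possible, how far mice differ cannot be read, and having 2 arrays limits every value's precision. The labels name kidney as the tissue of both pools, except that the treatment text names liver for the EST KO AKI pool; how the EST allele was made is not given in those labels. Values are linear intensities as deposited, 1 per probe set and array. Background was set per array from probe sets of families that kidney hardly expresses, such as olfactory receptors, at 638.3 in the EST KO AKI pool and 676.1 in the WT AKI pool. A value below background was raised to it before a ratio was taken, so such a fold is a lower bound, written "at least". A gene was called measured when its brightest probe set exceeded background in 1 pool or both, as was the case for 7480 genes. Sult1e1 read 17.2 in the EST KO AKI pool and 472.7 in the WT AKI pool, below background in both, so at this background it does not check the genotype label. With a lower background, the 75th percentile of the same families (325.8 in the EST KO AKI pool, 348.1 in the WT AKI pool), only the WT reading lay above it, the order the labels give.

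Conjugation with glycine is how liver and kidney clear benzoic acid and many short and medium-chain acyl groups: an acyl-CoA synthetase activates the acid in the mitochondrion, and a glycine N-acyltransferase transfers it to glycine, giving hippurate in the case of benzoate. Acetylation of cysteine conjugates by Nat8 is the last step in making mercapturates, the urinary end products of glutathione conjugation. Aminoacylases run in the opposite sense and release free amino acids from their N-acetylated forms, and mouse Acy3 also deacetylates mercapturates. The proximal tubule is the part of the nephron best known for these reactions and for the organic anion carriers that move their products.

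The genes lie in separate places, apart from Glyat with Keg1 on chromosome 19 and Nat8 with Nat8f1 on chromosome 6, and the 100 bases before their RefSeq start sites (build GRCm38.p6) are shown because their expression differed in the same direction. Capitals mark a searched motif. They stand at chr19:12695690-12695789 on the plus strand for Keg1, chr19:12633208-12633307 on the plus strand for Glyat, and chr6:85832280-85832379 on the minus strand for the downstream of the 2 Nat8 start sites. The others are at chr6:85915633-85915732 on the minus strand for Nat8f1, chr9:106438237-106438336 on the minus strand for Acy1, and chr19:3986470-3986569 on the plus strand for Acy3.
Keg1: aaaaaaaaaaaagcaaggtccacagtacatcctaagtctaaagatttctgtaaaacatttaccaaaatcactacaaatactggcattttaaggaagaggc
Glyat: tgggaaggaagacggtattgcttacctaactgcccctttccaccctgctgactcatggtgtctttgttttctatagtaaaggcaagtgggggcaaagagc
Nat8: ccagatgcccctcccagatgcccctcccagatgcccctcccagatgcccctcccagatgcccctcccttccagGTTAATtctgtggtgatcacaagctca
Nat8f1: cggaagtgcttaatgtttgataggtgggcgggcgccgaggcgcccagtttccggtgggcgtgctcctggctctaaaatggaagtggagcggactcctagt
Acy1: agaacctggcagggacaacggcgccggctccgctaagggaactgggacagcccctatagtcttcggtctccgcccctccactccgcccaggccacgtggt
Acy3: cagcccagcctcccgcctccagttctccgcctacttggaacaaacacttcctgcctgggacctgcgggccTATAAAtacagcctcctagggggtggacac

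The sequences upstream of these genes varied in base content, with Keg1 and Glyat both low in G or C and in CpG. Similarity between the sequences was not measured. Over 250 bases before the start, Keg1 had 36% G or C and 1 CpG, and Glyat 42.8% and 1 CpG, against medians of 52.4% and 6 CpG over 32851 RefSeq promoters. Nat8f1 had 59.6% and 21 CpG, Acy1 68.0% and 14 CpG, and Acy3 60.4% and 6 CpG. Nat8 had 53.6% and 7 CpG at its upstream start and 58.0% and 1 CpG at its downstream start. Motifs were searched on both strands of the 300 bases around the 7 member start sites. The single-arm site GTTAAT of HNF1, a factor of proximal tubule genes, was found in 1 of them, before the downstream Nat8 start with its first base at -27, and in 7.1% of all promoters. The core CAAAGTCCA of the HNF4 repeat was found in 1, on the opposite strand of the same Nat8 promoter from base 3 after the start, and in 0.475% of all promoters. TATAAA was found in 1, at -30 of Acy3, and in 13.6% of all promoters. The full HNF1 palindrome, which contains the single-arm site, was in 0 of the 7 and in 0.00913% of all promoters.

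All 6 genes were measured and all 6 were at least 2-fold higher in the EST KO AKI pool, with folds from 2.67 for Nat8 to 6.26 for Keg1. Their median log2 ratio was 2.02 (EST KO minus WT), where the median of all measured genes was -0.05. For comparison, 3.02% of all measured genes were higher by 2-fold or more, 1.4% lower by as much, and 43.6% higher by any amount. Because the genes were chosen on this comparison, these figures describe them and test nothing. The measurable error comes from the disagreement among probe sets of the same gene, taken over 1663 genes where a pair exceeded background on each array. An SD of 0.28 on the log2 scale was derived from it. Differences within a pair were wider, with a 95th percentile of 0.81 in absolute size, and 2.35% of these genes had a difference over 1. The lowest member ratio was 1.42. That SD holds no spread between mice and leaves out probe sets below background, such as that of Acy1 in the WT AKI pool.

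**Figure D1:**
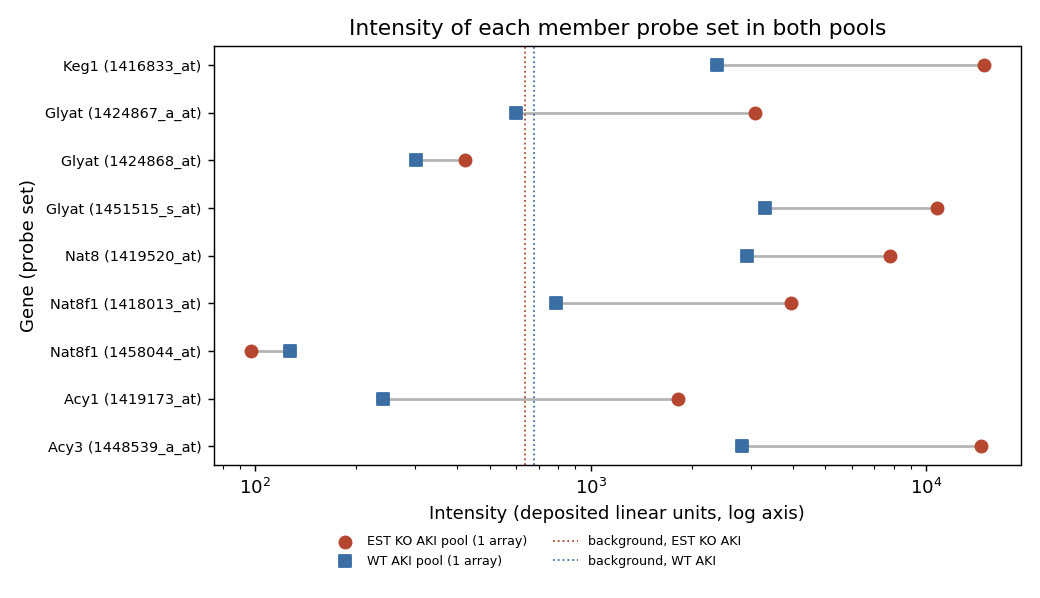
Intensity of the 9 probe sets of the 6 genes (log axis) in the EST KO AKI pool (circles) and the WT AKI pool (squares), 1 array each, with the background of each array as a dotted line. The brightest probe set of every gene is higher in the EST KO AKI pool, Acy1 lies below background in the WT AKI pool, and 1 probe set each of Glyat and Nat8f1 lies below background in both.

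Keg1 (kidney expressed gene 1, Entrez 64697), a relative of glycine N-acyltransferase, had the largest ratio of the 6, except with no floor, where Acy1 passed it (log2 2.93). Its single probe set read 14862 in the EST KO AKI pool and 2374.5 in the WT AKI pool, 6.26-fold higher and a log2 ratio of 2.65. That ratio ranked 7th from the top among 7480 measured genes. Both readings were well clear of background, at 23.3 times background in the EST KO AKI pool and 3.51 times in the WT AKI pool.

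Glyat (Entrez 107146), the mitochondrial enzyme that transfers acyl groups from CoA to glycine, has 3 probe sets. The brightest read 10793 in the EST KO AKI pool and 3318 in the WT AKI pool, 3.25-fold higher. Its _s_at suffix marks probes that can match more than 1 transcript. The second read 3097 in the EST KO AKI pool and 598.4 in the WT AKI pool, at least 4.58-fold higher because the WT value lay below background. The third read 422.2 and 300.6 in the EST KO AKI and WT AKI pools, below background in both, and gives no fold. The probe sets that could be read thus pointed the same way, with log2 ratios of 1.70 and at least 2.20. Keg1 and Glyat are separated on chromosome 19 by 2 coding genes, the olfactory receptors Olfr1442 and Olfr1443, which have no named probe set.

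Liver also makes Glyat, which matters because of the label that names liver. Of 20 hepatocyte genes, 17 were on the array and 10 of these lay below background in both pools, and none was listed at 0. Alb, serum albumin, read 522.3 in the EST KO AKI pool and 487.9 in the WT AKI pool, below background in both. The summed level of the list was 37894 in the EST KO AKI pool and 20687 in the WT AKI pool, and most of it came from Cyp2e1 (20655 and 11569) and Ttr (11957 and 1716), both of which kidney can express. Of the 7 measured genes of the list 3 were higher and 4 lower, with a median log2 ratio of -0.26. Ttr, the carrier of thyroid hormone and retinol-binding protein, was 6.97-fold higher, and Cyp2e1 and Cps1 were higher by less than 2-fold. Fgb, the fibrinogen beta chain, read 7.5 in the EST KO AKI pool and 1284 in the WT AKI pool, at least 2.01-fold lower and under 2-fold after quantile normalization, centring and removal of the trend (log2 -0.96, -0.96 and -0.92). Serpina1c, Apob and Hpd were lower with bounds under 2-fold.

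Nat8 (Entrez 68396), the cysteine conjugate N-acetyltransferase that completes mercapturates, read 7798 in the EST KO AKI pool and 2922 in the WT AKI pool on its single probe set, 2.67-fold higher (log2 1.42). It had the smallest ratio of the 6, ranking 87th among the measured genes. Nat8f1 (Entrez 66116), a camello-like gene of the same cluster, read 3964 in the EST KO AKI pool and 788.2 in the WT AKI pool on its brighter probe set, 5.03-fold higher (log2 2.33). The WT reading was only 1.17 times background, so the size of that fold rests on a dim value, and with a pseudocount of 500 in place of the floor its log2 ratio was 1.79. Its other probe set read 97.0 and 127.1 in the EST KO AKI and WT AKI pools, below background in both. Nat8f1 overlaps Tprkb in the annotation, and Tprkb, a subunit of a tRNA-modifying complex, was 1.47-fold higher (1075 in the EST KO AKI pool, 731.9 in the WT AKI pool).

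The rest of the Nat8 cluster was dimmer, and most of its ratios are bounds. Nat8f5, the coding gene next to Nat8, read 1432.5 in the EST KO AKI pool and 427.1 in the WT AKI pool, at least 2.12-fold higher, with a log2 ratio of 1.08 as a bound and 1.75 with the lower background of the 75th percentile. Nat8f2 read 718.2 in the EST KO AKI pool and 272.1 in the WT AKI pool, and since the WT value was below background its fold has a bound of only 1.06. On the log2 scale that bound was 0.09, against 1.04 with the lower background and 1.40 from the values as they stand. Nat8f4 read 744.0 in the EST KO AKI pool and 755.5 in the WT AKI pool, barely above background in both, with a log2 ratio of -0.02 that changed sign under quantile normalization, centring and removal of the trend (0.04, 0.03 and 0.08). Nat8f3 and Nat8l, an acetyltransferase of aspartate known from brain, lay below background in both pools. Nat8 genes are close copies of each other, and a probe set of the family may read more than 1 of them.

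Acy1 (Entrez 109652), which releases amino acids from their N-acetyl forms in the cytosol, read 1825 in the EST KO AKI pool and 239.9 in the WT AKI pool on its single probe set. It was the only gene of the 6 below background in the WT AKI pool, and it was at least 2.70-fold higher. How large the difference was depended on the treatment of the dim WT value: the log2 ratio was 1.43 as a bound, 2.39 as a bound with the lower background and 2.93 from the deposited values as they stand. Acy3 (Entrez 71670), the aminoacylase of aromatic amino acids and mercapturates, read 14559 in the EST KO AKI pool and 2821 in the WT AKI pool, 5.16-fold higher (log2 2.37), and ranked 10th among the measured genes. Its single probe set carries the suffix _a_at and can match several transcripts of the gene.

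Within an enzyme type the ratios were unequal as reported. The size of each gap, and for the aminoacylases also its direction, depended on the processing or the probe set. Keg1 exceeded Glyat by 0.94 on the log2 scale when the brightest Glyat probe set was used, although the second Glyat probe set, at 2.20 or more, lay closer to Keg1. Nat8f1 exceeded Nat8 by 0.91, but its WT reading was dim, and with a pseudocount the log2 ratios of Nat8f1 and Nat8 were 1.79 and 1.28. Acy3 exceeded the bound of Acy1 by 0.94, which is the most the difference can be. Acy1 was level with Acy3 with the lower background (bound of 2.39 against 2.37) and above it with no floor (2.93). No difference between members could be tested.

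**Figure D2:**
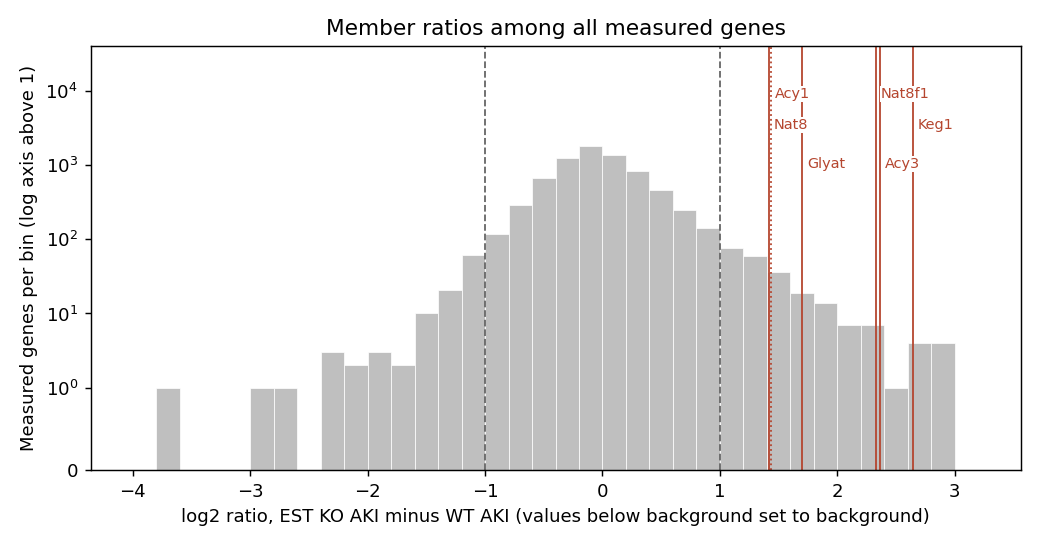
Number of measured genes (log axis) by log2 ratio, EST KO AKI minus WT AKI, with the 6 genes as red lines (dotted for Acy1, a lower bound) and 2-fold differences as dashed lines. The 6 lines stand between 1.42 and 2.65, to the right of the upper dashed line, past which 226 of 7480 measured genes lie.

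Relatives outside the 6 genes mostly had smaller ratios as reported, but several of these are bounds on dim values and do not place the relative below the 6. Of the 8 other aminoacylase and amidase genes, all on the array, 6 were measured, 5 were higher, 1 was lower and 0 reached 2-fold, with a median log2 ratio of 0.39. Cndp2, the cytosolic dipeptidase, read 17543 in the EST KO AKI pool and 9701 in the WT AKI pool, 1.81-fold higher, and Apeh, which removes acetylated residues from peptides, was 1.63-fold higher (2366 and 1449). Pm20d1, which makes and splits N-acyl amino acids, was at least 1.44-fold higher (972.7 and 552.1). Aspa, the aspartoacylase that is the closest named relative of Acy3, read 794.4 in the EST KO AKI pool and 386.4 in the WT AKI pool, and Cndp1, a carnosine dipeptidase, 812.5 and 186.6. The bounds of Aspa and Cndp1 were log2 0.23 and 0.27, and both passed 2-fold with the lower background (log2 1.04 and 1.22). With no floor Cndp1 reached 2.12, above Nat8 and Glyat, and Nat8f5 at 1.75 was also above both. Faah, a fatty acid amide hydrolase, was 1.15-fold lower (738.1 and 846.2), and Afmid and Pm20d2 lay below background in both pools. Baat, which conjugates bile acids to glycine or taurine, was the only other member of the glycine acyltransferase list on the array and was below background in both pools (248.4 and 12.7). Among other N-acetyltransferases, such as those of protein N-termini and polyamines, 11 of 20 listed genes were measured, with 4 higher, 7 lower, 0 past 2-fold and a median of -0.09. The lysosomal Hgsnat was 1.76-fold lower in the EST KO AKI pool and the NatB subunit Naa25 at least 1.61-fold higher.

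**Figure D3:**
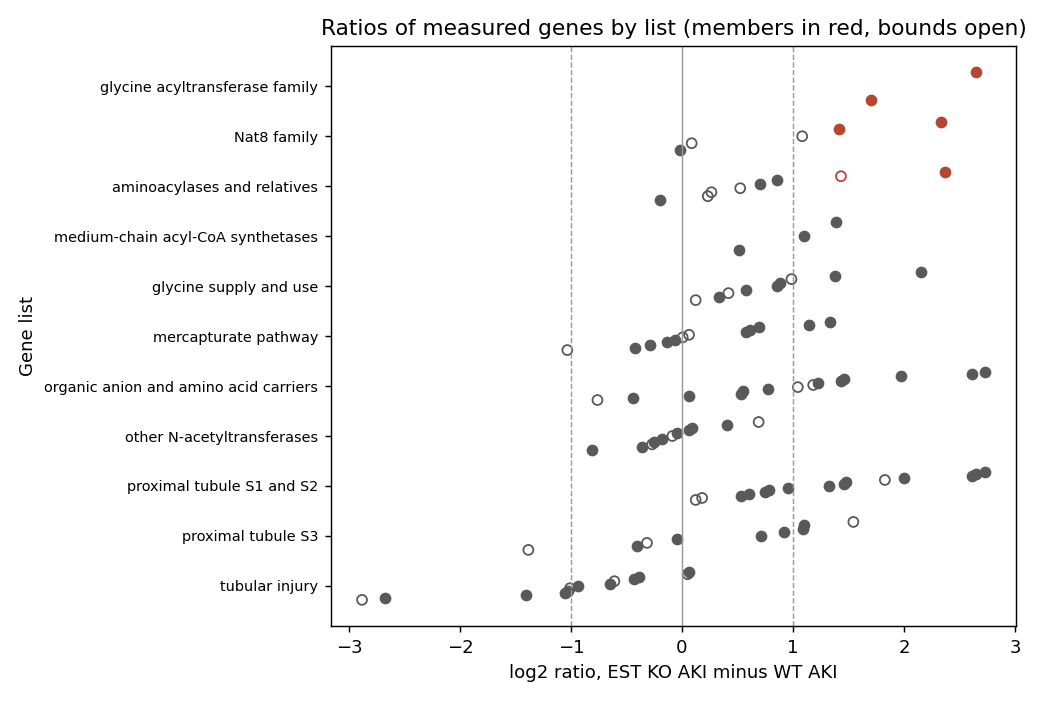
Log2 ratio, EST KO AKI minus WT AKI, of the measured genes of each list, with the 6 genes in red, lower bounds as open circles and 2-fold differences as dashed lines. Acsf3, measured but without an order, is not plotted. As plotted, with dim values at their bounds, the red points are the rightmost of the first 3 lists, the 11 other N-acetyltransferases centre near 0, and all 15 proximal tubule S1 and S2 genes lie to the right of 0.

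Genes that supply or use the substrates of these enzymes were read beside them. Of the listed acyl-CoA synthetases, whose medium-chain members feed Glyat, 3 of 4 measured genes were higher and 2 reached 2-fold. The other, Acsf3, had no order (651.4 in the EST KO AKI pool, 357.0 in the WT AKI pool). Acsm1 was 2.61-fold higher (2214 in the EST KO AKI pool, 848.4 in the WT AKI pool), Acsm3 2.14-fold (4774 and 2234) and Acsm2 1.43-fold (27739 and 19426). Acsm3 came under 2-fold with a pseudocount (log2 0.95) and under quantile normalization (0.96), while Acsm2 passed it (1.22) without probe sets that can match several transcripts. Glycine genes were higher for all 9 measured of 15 listed, with 2 at least 2-fold and a median log2 ratio of 0.86. Gldc, the glycine decarboxylase, was 4.45-fold higher (3620 and 813.2), and Shmt2, the mitochondrial enzyme that makes glycine from serine, was 2.61-fold higher (3015 and 1157) but under 2-fold (log2 0.77) without probe sets that can match several transcripts. Agxt2, a glyoxylate aminotransferase, was at least 1.98-fold higher and Pipox, a sarcosine oxidase, 1.84-fold higher. Agxt2 passed 2-fold with no floor or the lower background (log2 1.07 each). It also passed after quantile normalization, centring and removal of the trend (1.02, 1.04 and 1.08), and was at 0.69 with a pseudocount.

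The listed genes of the mercapturate pathway did not move one way. They are the glutathione transferases and peptidases that act before Nat8, and the lyases Kyat1 and Kyat3, which draw cysteine conjugates off the pathway. Of 12 measured genes of 18 listed, 7 were higher and 5 lower, with 2 at least 2-fold higher, 1 at least 2-fold lower and a median log2 ratio of 0.04 (0.58 with no floor). Lap3, a leucine aminopeptidase, was 2.52-fold higher (4124 in the EST KO AKI pool, 1637 in the WT AKI pool). Kyat3, a cysteine conjugate lyase, was 2.21-fold higher (1581 and 715.3), and under 2-fold with a pseudocount (log2 0.78). Gsta4, a glutathione transferase of lipid aldehydes, was at least 2.05-fold lower (318.9 and 1306), and under 2-fold after quantile normalization, centring and removal of the trend (log2 -0.99, -0.98 and -0.94). With the lower background or no floor its log2 ratio was larger in size, at -2.00 and -2.03. Gstm1 was 1.62-fold higher. Carriers of organic anions and amino acids were higher for 12 of 14 genes, and 8 of the 12 reached 2-fold, for a median of 1.11. Slc13a3, a dicarboxylate carrier, was 6.64-fold higher, Slc22a6, the organic anion carrier OAT1, 6.11-fold, Slc7a9, a cystine carrier, 3.93-fold, and Slc22a8, the carrier OAT3, 2.74-fold. With the mean of its probe sets the log2 ratio of Slc22a6 was 1.74 in place of 2.61, and that of Slc13a3 was 2.12 with a pseudocount in place of 2.73.

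Proximal tubule markers moved with the 6 genes, and in pooled kidney tissue fewer cells of a type and less RNA per cell cannot be told apart. The EST KO AKI pool held 124 mg from 6 mice and the WT AKI pool 180 mg from 3. Whether the 2 pools held the same parts of the kidney was not tested. All 15 markers of the S1 and S2 segments were measured and higher in the EST KO AKI pool, 8 reached 2-fold, the median log2 ratio was 1.32, and none was listed at 0. Their summed level was 104694 in the EST KO AKI pool and 48657 in the WT AKI pool. Against that median, Keg1 was higher by 1.32, Acy3 by 1.04, Nat8f1 by 1.01, Glyat by 0.38, Acy1 by 0.11 and Nat8 by 0.09. The ratios of Acy1 and of some markers are bounds, so these gaps hold only as reported. With no floor or with the mean of the probe sets, the marker median was 1.46, above Nat8 at 1.42. Acy1 was below that median with the mean of the probe sets (1.43) and above it with no floor (2.93). As reported, with dim values at their bounds, 2 of the 15 markers had a ratio above that of Keg1 and 7 a ratio above that of Nat8. Slc5a12 read 766.7 in the EST KO AKI pool and 77.3, below background, in the WT AKI pool. Its bound of log2 0.18 does not place it below either gene. Pck1, of gluconeogenesis and counted above Keg1, was 6.27-fold higher, a log2 ratio of 2.65 that was level with Keg1. It was 2.03 with a pseudocount and 2.18 with the mean of its probe sets, both below Keg1 (2.42 and 2.65). Slc7a7, a cationic amino acid carrier, read 3375 in the EST KO AKI pool and 843.4 in the WT AKI pool. S3 segment markers were mixed, with 5 higher and 4 lower of 9 measured and a median of 0.71, led by Slc5a8, a monocarboxylate carrier (at least 2.92-fold higher), and Slc22a7, an organic anion carrier (at least 2.61-fold lower). Summed S3 levels were 64738 in the EST KO AKI pool and 38775 in the WT AKI pool.

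Markers of injury, endothelium and leukocytes ran the other way. Of 13 measured tubular injury genes 11 were lower in the EST KO AKI pool, with a summed level of 68670 against 131235 in the WT AKI pool and a median log2 ratio of -0.94. All 10 measured endothelial genes were lower (summed level 10966 in the EST KO AKI pool, 14740 in the WT AKI pool), with a median of -0.44 and 0 past 2-fold. All 6 measured leukocyte genes were lower (8129 and 12667), with a median of -0.56 and 1 past 2-fold. Of all measured genes, 43.6% were higher by any amount and 1.4% at least 2-fold lower. Genes of the loop, distal tubule and collecting duct had 7 higher, 4 lower and 1 without an order, with sums of 59428 in the EST KO AKI pool and 49373 in the WT AKI pool. The 2 measured adipocyte genes differed by under 1.06-fold, and the list summed to 4619 and 4591 in the EST KO AKI and WT AKI pools. RNA integrity was read from the control probe sets, whose 3' over 5' ratio was 1.28 in the EST KO AKI pool and 1.35 in the WT AKI pool with actin. With GAPDH it was 0.84 in the EST KO AKI pool and 0.88 in the WT AKI pool. The part of any of these in the ratios of the 6 genes was not tested.

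Genes next to the 6 on the chromosome mostly had smaller ratios as reported. Within 3 coding genes on either side there were 28 other genes, of which 20 were on the array and 14 measured. Of these 14, 9 were higher and 5 lower, where 43.6% of all measured genes were higher by any amount. At least 2-fold higher were 2, Nat8f5 and Abhd14a, or 14.3% of the measured neighbours, against 3.02% of all measured genes. The difference in share was not tested. Abhd14a, the gene next to Acy1, read 1816 in the EST KO AKI pool and 869.1 in the WT AKI pool on its brightest probe set, 2.09-fold higher, and came under 2-fold with a pseudocount (log2 0.76) or the mean of its probe sets (0.99). The following neighbours of Acy1 were close to 2-fold, Abhd14b at 1.96-fold (4331 and 2208) and Pcbp4 at least 1.98-fold (1336 and 595.5). The other 2 probe sets of Pcbp4 lay below background in both pools. Pcbp4 passed 2-fold with no floor or the lower background (log2 1.17 each) and was at 0.75 with a pseudocount. It also passed after quantile normalization, centring and removal of the trend (1.02, 1.04 and 1.08), and Abhd14b passed after centring (1.02). On the other side of Acy1, Dusp7 was 1.23-fold higher. Around Acy3, Unc93b1 was 1.24-fold lower, Aldh3b2 at least 1.21-fold lower and Nudt8 1.15-fold higher, and beside the Glyat and Keg1 pair, Dtx4 was 1.08-fold lower and Zfp91 1.11-fold lower.

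**Figure D4:**
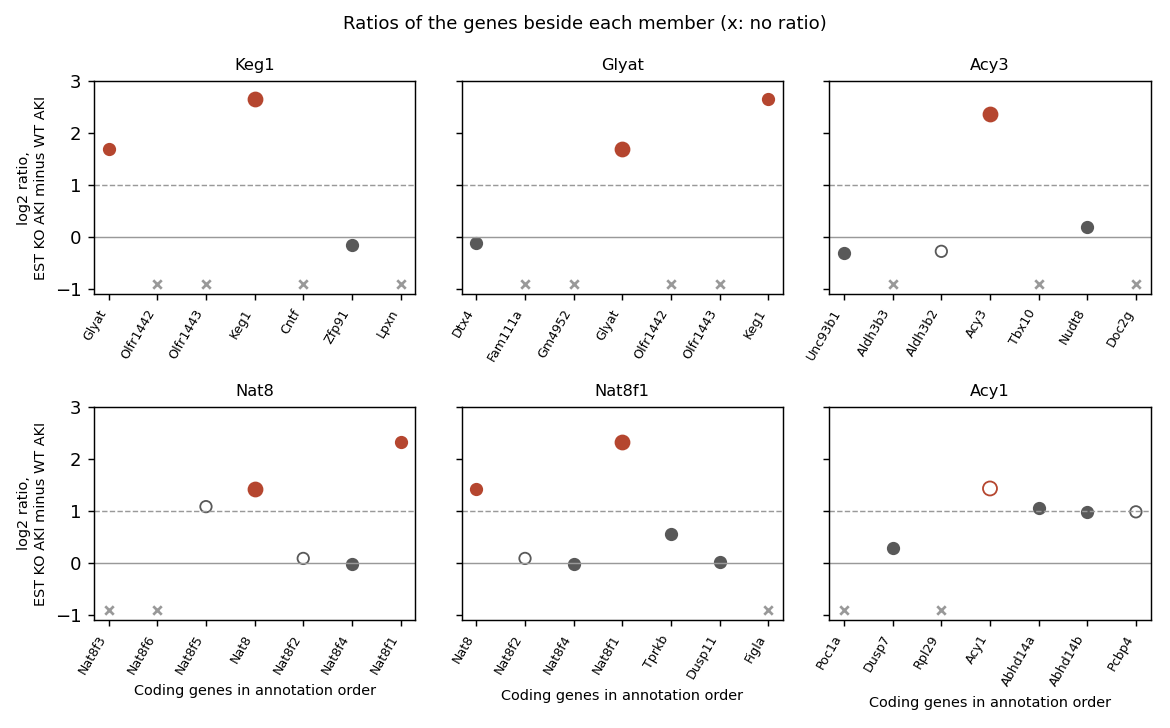
Log2 ratio, EST KO AKI minus WT AKI, of the 3 coding genes on each side of each of the 6 genes in annotation order, with the 6 genes in red, lower bounds as open circles, and crosses for genes with no ratio (not on the array, or below background in both pools). As plotted, each of the 6 genes has a higher ratio than its measured neighbours other than those among the 6, and Abhd14a, Abhd14b and Pcbp4 beside Acy1 lie near the dashed 2-fold line.

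Genes whose ratio over the 2 arrays was nearest to that of each of the 6 were named by a fixed rule, taking the 2 closest that were above background in both pools. Nearest to Keg1 (log2 2.65) were Pck1 (2.65) and Slc22a6 (2.61), the values of both depending on the probe set used. Nearest to Acy3 (2.37) were Slc13a1, a sulfate carrier (2.37), and Nat8f1 (2.33), and nearest to Nat8f1 were Egf, the growth factor of the distal tubule (2.32), and Cyp4a12a, a fatty acid hydroxylase (2.31). Nearest to Glyat (1.70) were Suclg1, a subunit of succinyl-CoA ligase (1.71), and Fuca2, a fucosidase (1.69). Nearest to Nat8 (1.42) were Serpinf2, the antiplasmin gene, and Them7 (1.41 each), and nearest to the bound of Acy1 (1.43) were Prnp, the prion protein gene, and the urate carrier Slc22a12 (1.43 each). With 2 arrays, closeness of a ratio is all that can be compared.

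**Figure D5:**
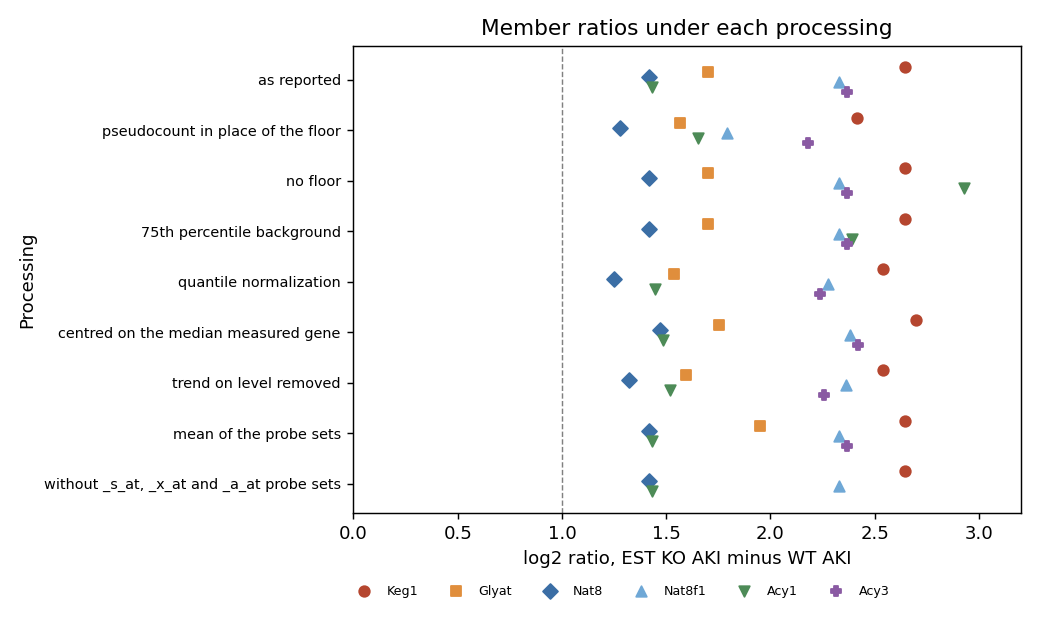
Log2 ratio, EST KO AKI minus WT AKI, of each of the 6 genes as reported and under 8 other ways of processing, with the 2-fold difference as a dashed line. Every ratio lies to the right of the dashed line, the lowest being Nat8 at 1.25 under quantile normalization, and Glyat and Acy3 have no value in the bottom row.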

How the data were processed

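Linear intensity values, 1 per probe set and array, were taken as the authors deposited them; the values show that each array was scaled to the same mean of 500.0 after the lowest and highest 2% were dropped. Per the labels' protocols, Trizol RNA (8 ug) was made into biotinylated cRNA for Affymetrix arrays; the probe set summary method is not given in the sources used here.

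Gene names came from GEO's platform annotation (34958 with 1 symbol, 932 with several, 9211 with none), and symbols were updated through a RefSeq table of GRCm38.p6, which matched 34754; all 6 genes and their promoters matched. A gene was read from its brightest probe set. Background was the 95th percentile of 129 olfactory, vomeronasal and taste receptor and keratin-associated protein probe sets. Above it lay 24.2% of probe sets in the EST KO AKI pool and 24.0% in the WT AKI pool.

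With 1 array per genotype, folds carry no p-value. Named genes are the 6 genes, their listed relatives, up to 4 genes per list with the largest ratio, Sult1e1 and the nearest ratios; chromosome neighbours, Alb and some further members of the lists were named after their values were seen. The genes and lists were chosen with earlier results of these data known. Python 3.11.15, pandas 2.3.3 and numpy 2.4.6 were used, and the ratio step was tested on simulated data. That test put folds only into genes well above background in both pools, so it did not cover dim values. Alternatives covered dim values, background, scaling (with a lowess fit by statsmodels 0.14.6) and probe set choice.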

Additional observations from a re-analysis of the deposited data

How the results depend on the processing

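All 6 genes remained at least 2-fold higher in the EST KO AKI pool under 7 of 8 alternatives; without probe sets that can match several transcripts, Glyat and Acy3 gave no value and the other 4 were at least 2-fold higher. No member was 2-fold lower under any of the 8. Of 46 single-gene values under alternatives, 43 moved by no more than the probe set SD of 0.28. The exceptions were Nat8f1 with a pseudocount (1.79) and Acy1 with no floor (2.93) or the 75th percentile background (2.39). Many of the 46 could not move, so the count is no measure of robustness. Removing the floor or lowering the background leaves a gene above background in both pools unchanged. Averaging leaves a gene with 1 readable probe set unchanged, and centring shifts every gene alike. The median log2 ratio of the 6, 2.02 as reported, was 1.72 with a pseudocount and 2.35 with no floor or the 75th percentile background, through the same dim values. Measured genes at least 2-fold lower numbered 105 as reported, 54 with a pseudocount, 197 with no floor and 204 with the 75th percentile background, which raised the measured genes to 11258; those at least 2-fold higher numbered 226 as reported and 172 to 331 under the alternatives. No replicate could be left out, and no paired analysis was possible because each genotype was 1 pool on 1 array.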
